A study of Mus musculus with 8 samples.

Results

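The genes described here are 35 markers of the cells in the embryonic cortex that are not neural: 14 of microglia, 9 of endothelial cells, 4 of pericytes and 8 of the meninges. They were taken from a list of names. Each gene was given a locus, its RefSeq span extended by 10 kb at both ends, and these 35 loci are among 21627 such loci of protein-coding genes on chromosomes 1 to 19 and X. The measure was the number of bases in a locus that lay under H3K4me peaks, separately in each of 4 libraries of chromatin immunoprecipitation and sequencing (ChIP-seq). Chromatin came from lysates of the whole cortex of mouse embryos at E15.5 (E, embryonic day). The WT group (2 libraries) had the genotype Prdm16 flox/flox, and the cKO group (2 libraries) had Emx1Ires-Cre; Prdm16flox/flox, so floxed Prdm16 alleles were present in both groups and Cre in the cKO alone. The labels do not say whether a library held 1 embryo or a pool, or whether the 2 libraries of a group came from separate litters, so p-values measure only the spread between these libraries. Peaks were the authors' calls, 1 list of broad peaks per library.

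H3K4me is histone H3 methylated on lysine 4, and the antibody is catalogued for the monomethyl form, which is found at enhancers and beside active promoters. Microglia are the macrophages of the brain and descend from the yolk sac. Endothelial cells line the vessels that grow into the cortex, pericytes wrap those vessels, and the fibroblasts of the meninges cover the brain surface. Emx1-driven Cre acts in dorsal telencephalic progenitors, the source of cortical excitatory neurons and glia, and microglia and endothelial cells do not arise from them. Any coverage at the 35 loci is therefore a sum over all cells of the lysate, in which fewer cells of a type and less of the mark per cell cannot be told apart. Which cells gave the peaks at these loci was not tested.

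The 4 lists held between 66476 and 82683 peaks that covered between 114 and 166 Mb, and both cKO lists covered more of the genome than both WT lists. No locus value below is corrected for this unless it is called centred. The sequencing depth is unknown. Progenitor and neuron genes checked the tissue label: all 25 radial glia and progenitor loci and all 24 cortical neuron loci held peaks in all 4 libraries, with median covered shares of 46.6% ± 6.83 and 27.7% ± 3.08 of the locus (SD of the 4 library medians). Prdm16 itself is not among the 35 genes, and peak lists cannot check its deletion.

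Most of the 35 loci carried the mark in every library, but over a small part of their length. Peak bases were present in all 4 libraries at 27 of the 35 loci (77.1%), compared with 70.3% of all loci. The median member had 3.82% ± 0.443 of its locus covered (SD of the 4 library medians), and the median of all loci was 5.79% ± 1.32. Of the 35, 23 lay below the median locus and 5 above the 75th percentile. Those 5 were Foxc1 (25.8% ± 3.59, SD over 4 libraries), Sox18 (24.8% ± 2.13), Col1a1 (21.6% ± 4.12), Pdgfrb (16.5% ± 3.55) and Pecam1 (13.9% ± 1.62), so each vascular and meningeal class had at least 1 and the microglia none. Trem2, a lipid-sensing receptor of microglia, Tie1, an endothelial receptor tyrosine kinase, and Col3a1, a fibrillar collagen chain, had no peak base in any library, as did 22.5% of all loci.

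The 4 classes differed in how evenly their loci were covered. Microglia genes had a median covered share of 2.85% ± 0.674 (SD of the 4 library medians) with single loci between 0 and 11.6%. Endothelial genes had 5.44% ± 1.27 with a range from 0 to 24.8%, and the 4 pericyte genes 5.65% ± 1.30 with a range from 2.42 to 16.5%. Meningeal genes had 4.0% ± 0.727 with a range from 0 to 25.8%. The median of the microglia genes stood beside 2.14% ± 0.790 for a list of erythroid, muscle and liver genes, tissues that a cortex lysate should lack except for blood. Differences between these lists were not tested.

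**Figure D1:**
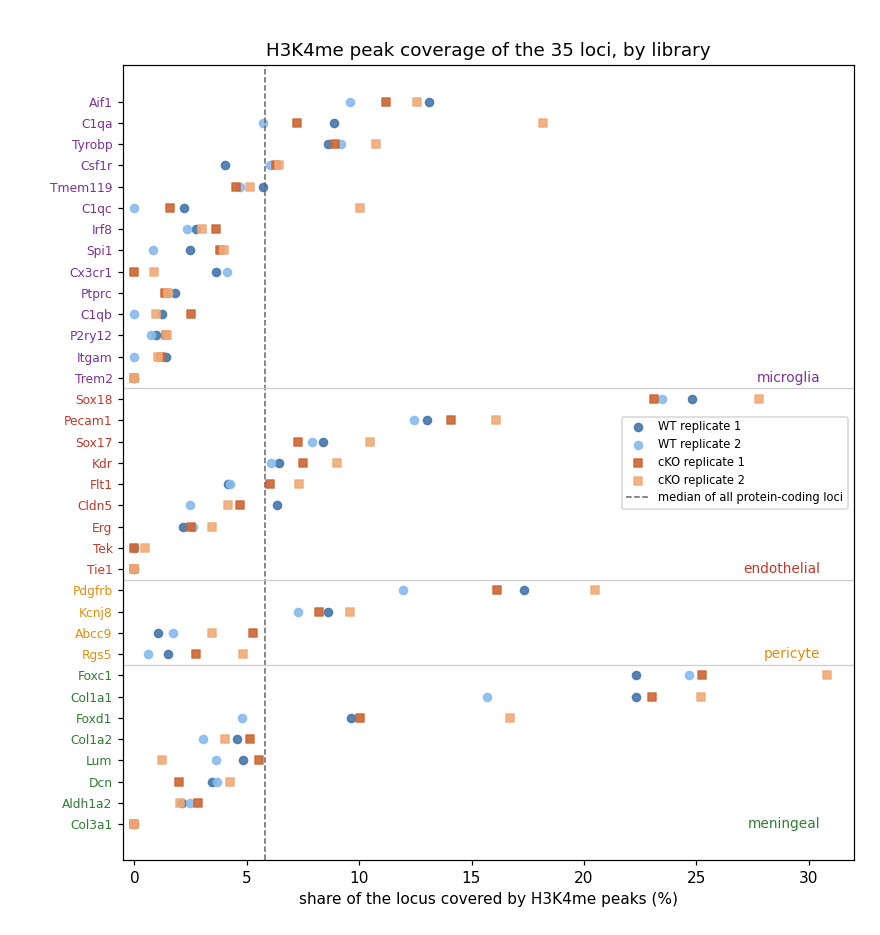
The horizontal axis is the share (%) of each of the 35 loci covered by H3K4me peaks, with 1 point per library (circles WT, squares cKO), and genes are grouped by cell class on the vertical axis. The dashed line is the median of all protein-coding loci at 5.79%; most genes sit left of it, and Foxc1, Sox18, Col1a1, Pdgfrb and Pecam1 sit well to its right in every library.

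Among the microglia genes, the transcription factors that specify the lineage were marked thinly. Values in kb of covered sequence are given below in the order WT replicate 1, WT replicate 2, cKO replicate 1, cKO replicate 2. Spi1, which encodes PU.1, the master regulator of myeloid cells, had peaks over 1.33, 0.451, 2.04 and 2.13 kb in a locus of 53.4 kb. The stretch of Spi1 covered in all 4 libraries was 451 bp long and lay outside the gene, in the flank (chr2:91078740-91079190). Irf8, a partner of PU.1, had 1.10, 0.939, 1.46 and 1.21 kb, and its region shared by all 4 libraries spanned the gene start (chr8:120735906-120736649, 744 bp). Spi1 and Irf8 each had both cKO libraries above both WT libraries, as did 44.2% of all loci.

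The surface receptors of microglia were covered to different degrees. Csf1r, the receptor on whose signal microglia depend for survival, had 1.84, 2.74, 2.88 and 2.93 kb, and 30.7% of its covered bases lay in the neighbouring gene Hmgxb3 rather than in Csf1r. Cx3cr1, the receptor for fractalkine, had 1.44 and 1.63 kb in the WT libraries, against 0 and 0.345 kb in cKO. It was 1 of 2 members, with Ptprc, in which both WT libraries exceeded both cKO libraries, compared with 1.12% of all loci. At Ptprc the closest libraries were nearly equal, WT replicate 2 with 2.00 kb and cKO replicate 2 with 1.99 kb. P2ry12, an ADP receptor that steers microglial processes, had 0.634, 0.485, 0.934 and 0.967 kb, all of it inside the span of Med12l, within which P2ry12 lies. Tmem119, a membrane protein used to tell microglia from other macrophages, had 1.53, 1.25, 1.21 and 1.37 kb with overlapping groups. Itgam, the integrin CD11b, had 1.07, 0, 0.913 and 0.794 kb, and Ptprc, the leukocyte phosphatase CD45, had 2.39, 2.00, 1.78 and 1.99 kb. The stretches of Ptprc covered in all 4 libraries lay at chr1:138135596-138136520 and chr1:138148905-138149273, both inside the gene and far from its start.

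At 4 microglia genes no covered base of the locus lay in the gene itself. Aif1 encodes the microglial calcium-binding protein Iba1, and its locus had 3.29, 2.41, 2.81 and 3.16 kb covered, none of it in Aif1 itself. Of these bases 63.8% lay in other genes, with 1.68, 1.45, 1.5 and 1.67 kb in Prrc2a, and 36.2% lay outside all coding genes. Tyrobp, the signalling adaptor of Trem2, was alike: 2.05, 2.19, 2.13 and 2.55 kb in the locus, of which 1.73, 1.98, 1.78 and 2.07 kb lay in Nfkbid and none in Tyrobp. Over the 32 loci with any peak, 4 had no covered base in their own gene (Aif1, Tyrobp, C1qb and C1qc), which is 12.5% compared with 7.84% of the 16768 loci with a peak among all genes. All 4 are microglia genes with neighbours inside the 10 kb flank. At C1qb 58.4% of the covered bases lay outside all coding genes. Which gene a peak serves was not tested.

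C1qa, C1qb and C1qc encode the chains of complement C1q and sit side by side, so their loci overlap. C1qa had 2.04, 1.32, 1.66 and 4.17 kb covered, C1qb 0.317, 0, 0.653 and 0.25 kb, and C1qc 0.506, 0, 0.365 and 2.32 kb. The high C1qa and C1qc values of cKO replicate 2 share bases, because peaks in C1qa fall in the C1qc flank. In the C1qa flank lay a 1286 bp region covered in all 4 libraries (chr4:136904692-136905977) that touches no coding gene. The strongest peak of the C1qa locus in WT replicate 1 had a −log10 q of 10.4, above 97.6% of the peaks in that list, and in the other 3 libraries the strongest C1qa peak ranked above 95.8, 84.3 and 73.9%. The strongest peak of the Aif1 locus ranked above 90.9, 96.7, 95.6 and 93.5%, higher than C1qa in all libraries but WT replicate 1.

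Endothelial genes included the best ranked peaks of the 35 loci. Pecam1 encodes the junction protein CD31 and had peaks over 10.6, 10.1, 11.4 and 13.1 kb in a locus of 81.1 kb. All of it lay inside the gene, and 4 regions common to the 4 libraries made up 9543 bp (the longest chr11:106657792-106661216, 3425 bp). The strongest Pecam1 peak in each library ranked above 98.3, 99.8, 99.5 and 95.6% of the peaks of its list, the highest standing of the 35 genes in every library. Both cKO libraries exceeded both WT libraries in covered bases at Pecam1, as at 44.2% of all loci.

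The receptors for VEGF were covered at their starts in every library. Kdr, the main signalling VEGF receptor of endothelium, had 4.25, 4.02, 4.98 and 5.98 kb, with 1 shared region of 3159 bp over the gene start (chr5:75976198-75979356). Flt1, the receptor that traps VEGF, had 7.67, 7.89, 11.1 and 13.5 kb in a 185 kb locus. Flt1 held 7 shared regions, more than any other of the 35 genes, from the start region (chr5:147724899-147726605, 1707 bp) to one centred 127941 bp into the gene. Kdr and Flt1 each had higher values in both cKO libraries, as did 44.2% of all loci. Tek, the angiopoietin receptor, had 0.724 kb in cKO replicate 2 and none in the other 3 libraries, and with Tie1 it left the 2 angiopoietin pathway receptors almost without peaks.

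The endothelial transcription factors all held peaks in 4 of 4 libraries. Erg, an ETS factor that keeps endothelial identity, had 5.39, 6.42, 6.19 and 8.54 kb. A region shared by all libraries lay over its first start (chr16:95585101-95586836). Another of 2092 bp lay upstream of the gene (chr16:95596461-95598552), and only its edge falls in the locus and counts in these values. Sox17, a SOX factor of arteries, had 2.23, 2.095, 1.93 and 2.77 kb. Sox18, its relative in early vessels and lymphatics, had 5.41, 5.12, 5.04 and 6.06 kb, of which 23.7% lay in Sox18 and 24.2% in the neighbour Tcea2. Groups overlapped at Erg, Sox17 and Sox18. Cldn5, the tight junction protein of the blood-brain barrier, had 1.36, 0.527, 1.01 and 0.891 kb, 94.7% of it inside the short gene.

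Pericyte genes included the 2 loci with the largest positive differences, cKO minus WT, of those tested. Pdgfrb, the receptor that recruits pericytes to vessels, had 10.4, 7.15, 9.67 and 12.3 kb, and its longest shared region of 4213 bp lay over one end of the gene. Abcc9 and Kcnj8 encode the regulatory and pore subunits of the vascular ATP-sensitive potassium channel and lie next to each other. Kcnj8 had 2.30, 1.95, 2.19 and 2.57 kb with overlapping groups and 1 shared region over its start (chr6:142570190-142572139). Abcc9 had 1.43, 2.32, 7.11 and 4.64 kb, and Rgs5, a G protein regulator used as a pericyte marker, had 0.910, 0.375, 1.66 and 2.91 kb. Both Abcc9 and Rgs5 had the cKO libraries above the WT libraries, as did 44.2% of all loci. Rgs5 was the 1 locus of 27 with peaks in every library and no base common to all 4.

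Meningeal genes ranged from no peak to the most covered locus of the 35. Foxc1, a forkhead factor needed for meningeal development, had 5.35, 5.92, 6.06 and 7.39 kb of a 24.0 kb locus covered, and 4 shared regions that add up to 4704 bp, of which the longest (chr13:31806333-31808543, 2211 bp) lay over the gene start. Foxd1, another forkhead factor of the meninges, had 2.17, 1.07, 2.26 and 3.76 kb. At Foxc1 and Foxd1 both cKO libraries exceeded both WT libraries, as at 44.2% of all loci. Col1a1, a type I collagen chain, had 8.22, 5.77, 8.48 and 9.28 kb covered and 5 shared regions that add up to 5536 bp, with both cKO libraries above both WT libraries, and 68.3% of its covered bases lay in the flanks. Col1a2, the partner chain, had 2.55, 1.71, 2.87 and 2.25 kb, and Col3a1 had none. The matrix proteoglycans Dcn (2.04, 2.15, 1.16 and 2.49 kb) and Lum (1.32, 0.989, 1.51 and 0.339 kb) differed more between the 2 cKO libraries than between the group means. Aldh1a2, which makes the retinoic acid released by the meninges, had 2.15, 2.50, 2.85 and 2.05 kb, with shared regions after its start (chr9:71215960-71216746) and inside the gene.

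In all, 26 of the 35 loci held 55 regions covered in all 4 libraries. Of these 40 touched the gene span and 15 lay in the flank alone. Their median length was 1119 bp, and that of all regions of at least 200 bp shared by the 4 libraries was 1037 bp. The median of covered bases that fell in the locus's own gene was 67.9% for the 32 member loci with peaks and 60.1% over all loci with peaks.

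At most of the genes, as for most promoters of all coding genes, a promoter was touched by peaks in every library or in none. RefSeq promoter windows on GRCm38.p6, each running from 250 bases before to 50 after an annotated start, were at hand for 23 of the 35 genes (27 windows). Peaks touched 10 windows in all 4 libraries, 3 windows in some libraries and 14 in none. Of 21044 windows of all coding genes, 22.9% were touched in all 4 and 49.5% in none. The 10 were those of Kdr, Flt1, the first start of Erg, Abcc9, Kcnj8, Foxc1, Foxd1, Col1a2, P2ry12 and the first start of Irf8. Only 2 of 11 microglia windows were among them, and the window of P2ry12 lies within Med12l. Untouched in every library were the windows of Cx3cr1, Trem2, Aif1, Itgam, C1qb, C1qc, Ptprc (2 windows), the second start of Irf8, Tek, Tie1, the other two starts of Erg, and Col3a1. Not matched were Csf1r, Tmem119, Tyrobp, C1qa, Spi1, Pecam1, Sox17, Sox18, Pdgfrb, Col1a1, Dcn and Lum.

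The touched and untouched promoters differed in CG dinucleotides, the sites of DNA methylation that cluster at many vertebrate promoters. The sequences below are the 250 bases before the start, 5′ to 3′ on the strand of the gene, with CG in capitals. First come 4 promoters touched in every library: 3 of them rich in CG, from the endothelial, microglia and meningeal classes, and P2ry12, which holds 3.
Flt1 (chr5:147726012-147726261, minus strand): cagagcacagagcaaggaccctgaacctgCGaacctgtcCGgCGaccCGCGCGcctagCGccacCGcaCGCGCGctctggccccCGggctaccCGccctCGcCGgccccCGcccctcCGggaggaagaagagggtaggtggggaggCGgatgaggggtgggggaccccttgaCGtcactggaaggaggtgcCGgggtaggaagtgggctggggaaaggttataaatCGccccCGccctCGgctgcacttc
Irf8, first start (chr8:120736108-120736357, plus strand): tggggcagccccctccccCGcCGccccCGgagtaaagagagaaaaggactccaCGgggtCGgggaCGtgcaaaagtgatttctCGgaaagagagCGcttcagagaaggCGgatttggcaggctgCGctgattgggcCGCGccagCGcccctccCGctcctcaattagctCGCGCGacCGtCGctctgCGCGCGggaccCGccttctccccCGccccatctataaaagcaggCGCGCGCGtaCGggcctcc
Foxc1 (chr13:31806396-31806645, plus strand): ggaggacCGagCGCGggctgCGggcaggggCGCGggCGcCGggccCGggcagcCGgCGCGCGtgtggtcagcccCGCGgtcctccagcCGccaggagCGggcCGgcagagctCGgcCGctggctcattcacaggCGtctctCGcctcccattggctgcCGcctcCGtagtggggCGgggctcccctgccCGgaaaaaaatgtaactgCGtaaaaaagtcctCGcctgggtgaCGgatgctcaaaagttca
P2ry12 (chr3:59262986-59263235, minus strand): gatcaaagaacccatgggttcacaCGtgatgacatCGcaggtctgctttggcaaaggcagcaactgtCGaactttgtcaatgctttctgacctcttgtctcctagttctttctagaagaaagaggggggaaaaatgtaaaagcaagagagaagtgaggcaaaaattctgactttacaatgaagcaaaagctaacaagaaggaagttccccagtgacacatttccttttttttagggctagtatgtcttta
Next are 3 promoters without a peak in any library, Cx3cr1 with 4 CG, C1qb with 6 and Col3a1 with 0. Kcnj8, touched in every library, also holds 6 in these 250 bases.
Cx3cr1 (chr9:120068297-120068546, minus strand): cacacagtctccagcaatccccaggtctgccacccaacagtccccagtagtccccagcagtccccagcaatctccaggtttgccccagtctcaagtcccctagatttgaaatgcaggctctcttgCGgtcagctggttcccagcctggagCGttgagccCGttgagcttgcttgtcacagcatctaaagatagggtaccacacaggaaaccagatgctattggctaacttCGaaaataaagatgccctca
C1qb (chr4:136886201-136886450, minus strand): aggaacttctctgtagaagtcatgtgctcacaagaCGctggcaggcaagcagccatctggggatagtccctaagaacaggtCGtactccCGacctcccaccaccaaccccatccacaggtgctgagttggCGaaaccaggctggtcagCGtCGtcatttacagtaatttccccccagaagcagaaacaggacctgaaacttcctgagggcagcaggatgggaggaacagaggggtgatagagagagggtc
Col3a1 (chr1:45311288-45311537, plus strand): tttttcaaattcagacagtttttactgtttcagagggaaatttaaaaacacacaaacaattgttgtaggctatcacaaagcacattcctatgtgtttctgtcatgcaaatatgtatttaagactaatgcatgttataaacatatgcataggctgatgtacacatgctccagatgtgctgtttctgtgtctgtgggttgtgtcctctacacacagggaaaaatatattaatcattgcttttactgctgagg
Last is Aldh1a2, the richest in CG of the 27 and hardly touched.
Aldh1a2 (chr9:71215539-71215788, plus strand): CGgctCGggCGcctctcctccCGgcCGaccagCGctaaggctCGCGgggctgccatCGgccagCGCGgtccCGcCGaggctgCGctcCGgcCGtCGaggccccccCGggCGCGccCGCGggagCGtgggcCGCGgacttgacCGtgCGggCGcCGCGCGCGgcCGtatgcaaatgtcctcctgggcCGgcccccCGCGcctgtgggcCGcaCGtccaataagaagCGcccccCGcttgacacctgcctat

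Counted over the whole 300-base window, the 10 touched windows of the listed genes held a median of 16 CG (4 to 38) and the 14 untouched windows a median of 4 (0 to 8). Flt1 held 29, the first Irf8 window 38 and Foxc1 32, and Cx3cr1 held 5, C1qb 6 and Col3a1 0. The same order held over all coding genes, where touched windows had a median of 18 and untouched ones 5, so it is not particular to these genes. Of all windows with 0 to 4 CG, 6.13% were touched in all 4 libraries, and the listed genes had 1 of 9, P2ry12. The share was 23.6% for 5 to 9 CG (1 of 8 listed, Kcnj8 with 9), 35.8% for 10 to 19 (5 of 6), 32.3% for 20 to 29 (1 of 1, Flt1) and 21.99% for 30 or more (2 of 3). No listed window with 10 or more CG was untouched in every library. Among all windows, 25.7% with 10 to 19 CG, 25.8% with 20 to 29 and 36.7% with 30 or more were untouched. The windows of Erg followed the same order of CG within 1 locus. The first had 16 CG and 293, 300, 300 and 300 bases under peaks. Those at the 2 other starts had 2 and 4 CG and no base under a peak.

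**Figure D2:**
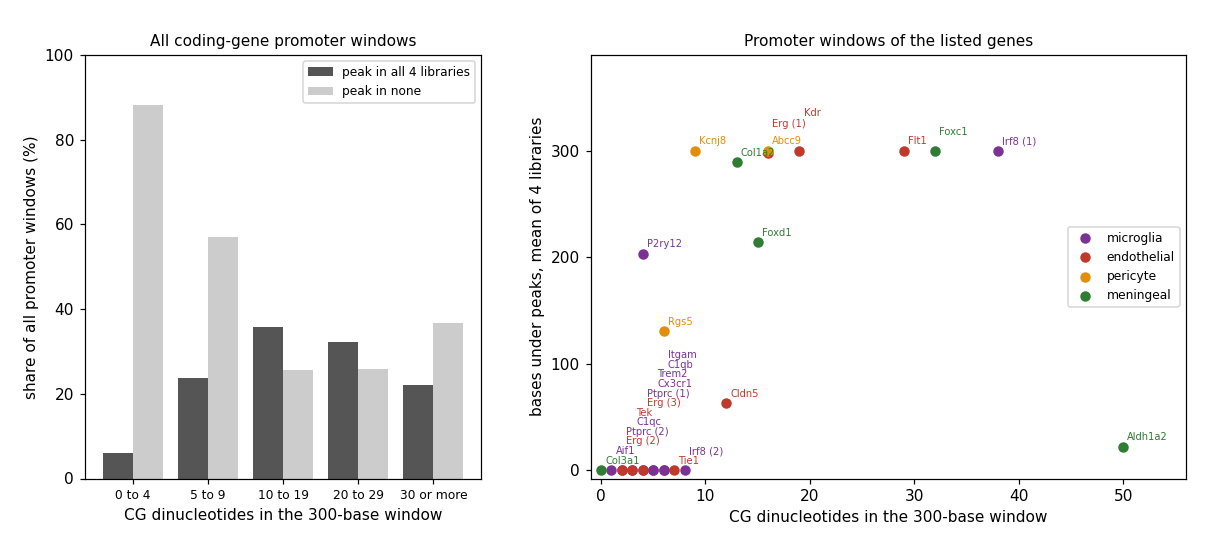
Left, bars give the share (%) of all 21044 promoter windows touched by peaks in all 4 libraries (dark) or in none (light), by number of CG in the window. Right, each point is 1 window of a listed gene (start number in parentheses), with its CG count against the mean number of its 300 bases under peaks over 4 libraries; untouched windows gather at 8 CG or fewer, and Aldh1a2 with 50 CG stands alone at the lower right.

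Aldh1a2, with 50 CG in its window, had 50 bases under peaks in WT replicate 1, 38 in cKO replicate 1 and none in the other 2 libraries. Its peaks began 1, 127, 13 and 172 bp after the start and ran to between 958 and 1287 bp. Cldn5 was similar, with peaks that began 314, 218 and 187 bp after the start in WT replicate 2, cKO replicate 1 and cKO replicate 2, and at −199 bp in WT replicate 1. The promoter window of Aldh1a2 was thus untouched in 2 of 4 libraries and that of Cldn5 in 3 of 4. Rgs5 was touched at its start in WT replicate 1 (276 bases) and cKO replicate 2 (245 bases) alone, 1 library of each genotype. At Kdr, Flt1, Kcnj8, Abcc9, Foxc1 and the first start of Irf8 all 300 bases were under peaks in every library.

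**Figure D3:**
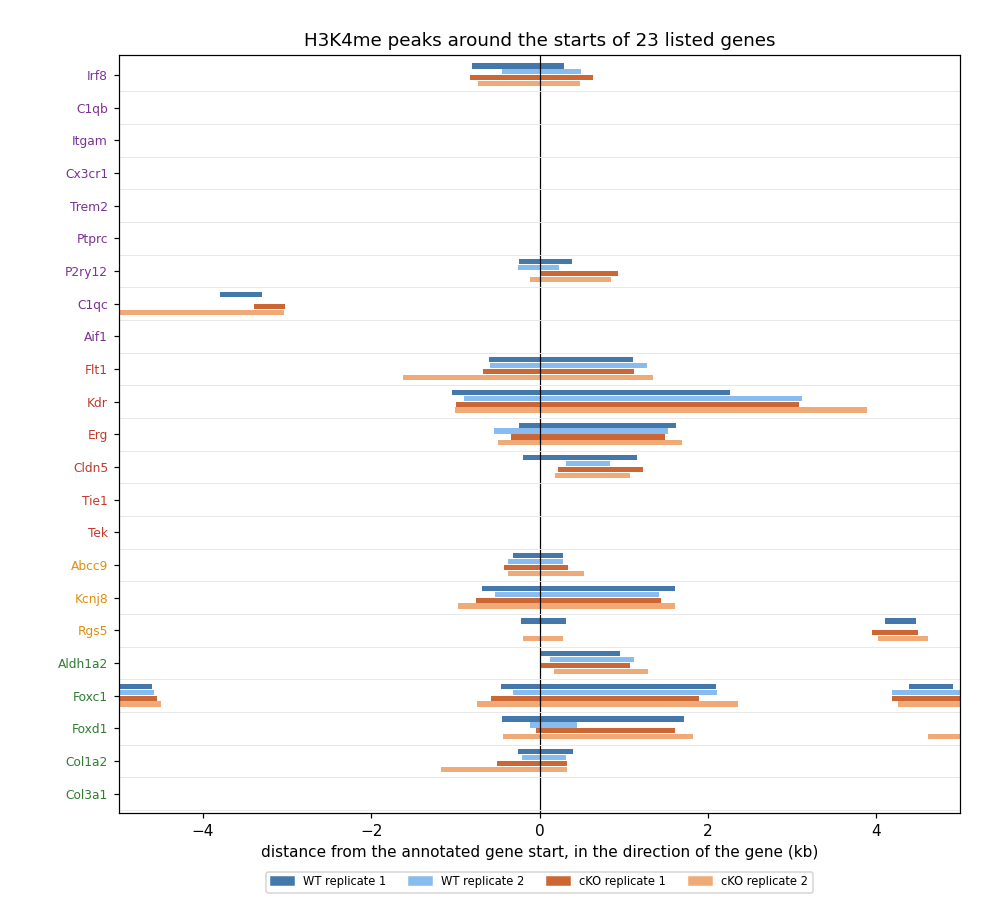
Bars show where the authors' peaks lie within 5 kb of the start of 23 genes (the first start where there are several), as distance in kb in the direction of the gene, with 1 bar colour per library. Peaks of Kdr, Flt1, Erg, Kcnj8, Abcc9, Irf8, Foxc1, Foxd1, Col1a2 and P2ry12 reach across or up to the start in all 4 libraries, those of Aldh1a2 and Cldn5 lie mostly after it, and 9 genes show no peak in the frame.

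The 300-base windows were searched on both strands for 3 short motifs. GAGGAA, the core bound by PU.1, was in 10 of the 27 windows (6 of 11 microglia windows) and in 27.2% of all coding gene windows. The 6 microglia windows with it were those of Aif1, C1qb, C1qc, Itgam, Trem2 and the first start of Ptprc, none of them under a peak. The windows of Flt1 and Abcc9 held GAGGAA too and were touched in all 4 libraries. Over all coding genes, 21.3% of windows with GAGGAA were touched in all 4 libraries, beside 23.5% of those without. CCGGAA, a core bound by ETS factors such as Erg, was in 2 of the 27 (Kdr and Foxc1) and in 18.9% of all windows. TATAAA, the TATA box, was in 5 of the 27 (Col3a1, Erg, Flt1, Irf8 and Ptprc) and in 12.7% of all. GAGGAA and CCGGAA share their last 4 letters, GGAA, the core that ETS factors, PU.1 among them, bind. A match describes letters in the window and not a bound factor.

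No member locus differed between the genotypes past the threshold. For this comparison the covered bases were taken as log2(bases + 500), loci with a mean of at least 1000 bases were kept (14937 of all loci, 25 of the 35), and the median locus of a library was set to 0 (centring). limma called 0 of 14937 loci (0.0%) at a Benjamini-Hochberg adjusted p under 0.05, while at an unadjusted p under 0.05 5.56% of them were higher in cKO and 4.43% lower. Of the 25 members tested, 1 was higher at the unadjusted level and 0 lower, with adjusted p between 0.475 and 0.974. The log2 difference, cKO minus WT, was positive at 6 and negative at 19 members, beside 6722 and 8215 of all loci tested. Its median was −0.15 for the members and −0.038 over all loci. Without centring the split of the members turned to 21 positive and 4 negative, and the median of all loci was 0.35.

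Abcc9 was the member at the unadjusted level in this fit. Its WT libraries had 1.43 and 2.32 kb covered and its cKO libraries 7.11 and 4.64 kb, a log2 difference of 1.04 ± 0.34 (SE, 2 libraries per genotype, limma adjusted p = 0.475). The difference turned to −0.24 when each list was cut to the same covered length, and lay between 0.66 and 1.41 when single libraries were left out. Rgs5 followed with 0.90 ± 0.40 (limma adjusted p = 0.503), Spi1 with 0.59 ± 0.40 (0.613) and Foxd1 with 0.36 ± 0.33 (0.701). Without WT replicate 2 Spi1 had 0.22 and Foxd1 0.083, and without WT replicate 1 they had 0.96 and 0.64. Foxd1 had 0.13 without cKO replicate 2. Flt1 had 0.24 ± 0.16 (limma adjusted p = 0.599) and C1qa 0.18 ± 0.37 (0.871). The 2 other pericyte genes stood near or below 0, with −0.063 ± 0.17 for Pdgfrb and −0.25 ± 0.27 for Kcnj8, so the 4 pericyte genes had values of both signs.

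The most negative values after centring were those of Lum, Dcn, Ptprc and Tmem119. Lum had −0.72 ± 0.55 (limma adjusted p = 0.654), Dcn −0.60 ± 0.34 (0.565), Ptprc −0.56 ± 0.28 (0.529) and Tmem119 −0.46 ± 0.35 (0.655). Intervals of 2 SE around these 4 values all included 0. Single libraries decided the first 2: Lum had −1.44 without cKO replicate 1 and −0.0069 without cKO replicate 2, and Dcn −0.27 and −0.94. When all lists were trimmed to 1 covered length other members were lowest. Sox18 had −2.99 ± 0.62, Sox17 −2.45 ± 0.61, Col1a2 −2.41 ± 0.63 (limma adjusted p = 0.498 for each) and Csf1r −1.49 ± 0.81 (0.658). The trimming removed the peaks of lowest −log10 q from every list but the shortest, WT replicate 2. In the full lists Sox18 had 5.41, 5.12, 5.04 and 6.06 kb with overlapping groups. Its strongest peak ranked above 53.35, 25.1, 40.0 and 28.5% of the peaks, in the same library order. How far the loss of weak peaks set these values was not tested. Pecam1 (−0.15 ± 0.14), Sox18 (−0.32 ± 0.18), Kdr (−0.021 ± 0.19) and Foxc1 (−0.15 ± 0.19) had smaller standard errors and more covered bases. Pecam1, Kdr and Foxc1 had more covered bases in both cKO libraries yet a negative centred value, and without centring they had 0.23, 0.36 and 0.23.

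**Figure D4:**
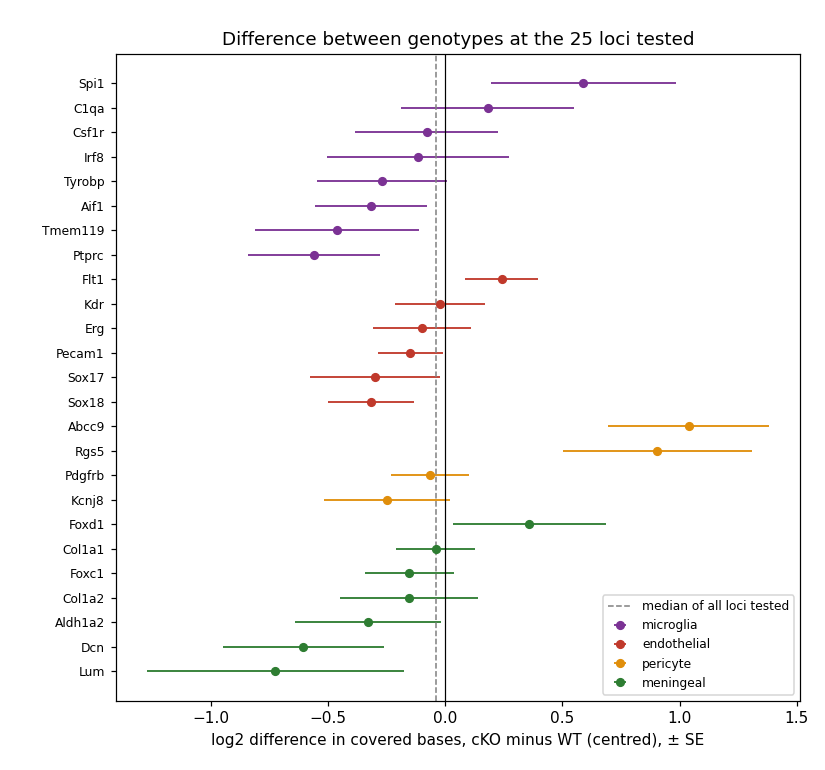
Points give the log2 difference in covered bases, cKO minus WT after centring, for the 25 genes tested, with bars of 1 SE from limma (2 libraries per genotype) and genes grouped by class. Abcc9 (1.04) and Rgs5 (0.90) stand furthest right and Lum (−0.72) furthest left, and the dashed line is the median of all loci tested at −0.038.

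Left out of the fit for low coverage were 10 members, of which 7 had a peak in some library: Cx3cr1, P2ry12, C1qb, C1qc, Itgam, Cldn5 and Tek. Cx3cr1 was the largest of these, with a log2 difference of −2.04 ± 0.43 in a limma fit without the filter (adjusted p = 0.402), on the 1.44, 1.63, 0 and 0.345 kb given above. Its strongest peaks were weak, above 14.9 and 24.2% of the peaks in WT replicates 1 and 2 and 26.8% in cKO replicate 2. In that fit C1qc had 0.74 ± 0.60 and the other 5 lay between −0.33 (Cldn5) and 0.25 (Tek), with adjusted p from 0.675 to 0.967.

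Before centring, covered bases were higher in both cKO libraries than in both WT libraries at 12 of the 35 members, compared with 44.2% of all loci. The reverse was seen at 2 members, Cx3cr1 and Ptprc, compared with 1.12% of all loci. At Ptprc it rested on 2.00 kb in WT replicate 2 against 1.99 kb in cKO replicate 2. By class the 12 were 4 microglia, 3 endothelial, 2 pericyte and 3 meningeal genes. Since both cKO lists covered more of the genome, the counts in the 2 directions start from unequal backgrounds.

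Regions specific to a genotype, at least 200 bp covered in both of its libraries with no peak base in the other genotype, were few at these genes. cKO-only regions were found in 3 of the 35 loci, and 14.0% of all loci held one. They lay inside Flt1 (chr5:147665737-147666092, 356 bp, centred 60097 bp into the gene), inside Rgs5 (chr1:169671947-169672709, 763 bp) and inside Abcc9 (chr6:142683107-142683455, 349 bp). A WT-only region was found in 1 of the 35, Cx3cr1 (chr9:120054658-120055316, 659 bp, centred 13310 bp into the gene), and 1.59% of all loci held one. All 4 rested on peaks below the median −log10 q of their list, with −log10 q as deposited of 3.17 and 2.64 at Flt1, 1.64 and 3.12 at Rgs5, 3.93 and 2.11 at Abcc9, and 1.89 and 1.70 at Cx3cr1. With a minimum of 500 bp, 2 of these 4 loci were left.

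Further genes of the same cell types, from longer lists, gave a fuller picture of coverage. Of 25 other microglia and macrophage genes the median covered share was 1.68% ± 0.645 (SD of the 4 library medians), with Olfml3 (30.3%) and Cd68, a lysosomal protein (27.9%), far above it. Of 25 other endothelial genes the median was 9.34% ± 2.15, led by Mfsd2a, a lipid transporter of the blood-brain barrier (26.3%), Nrp1, a VEGF co-receptor (22.9%), and Gata2 (21.6%). Of 16 other mural cell genes it was 8.46% ± 1.16, led by Ndufa4l2 (44.4%), Vtn (25.2%) and Cd248 (21.8%), and of 24 other meningeal and fibroblast genes 13.3% ± 1.93, led by Zic2 (64.7%), Zic1 (31.6%) and Crabp2 (29.2%). Several of the leaders, such as Zic2 and Nrp1, are also expressed by neural cells.

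**Figure D5:**
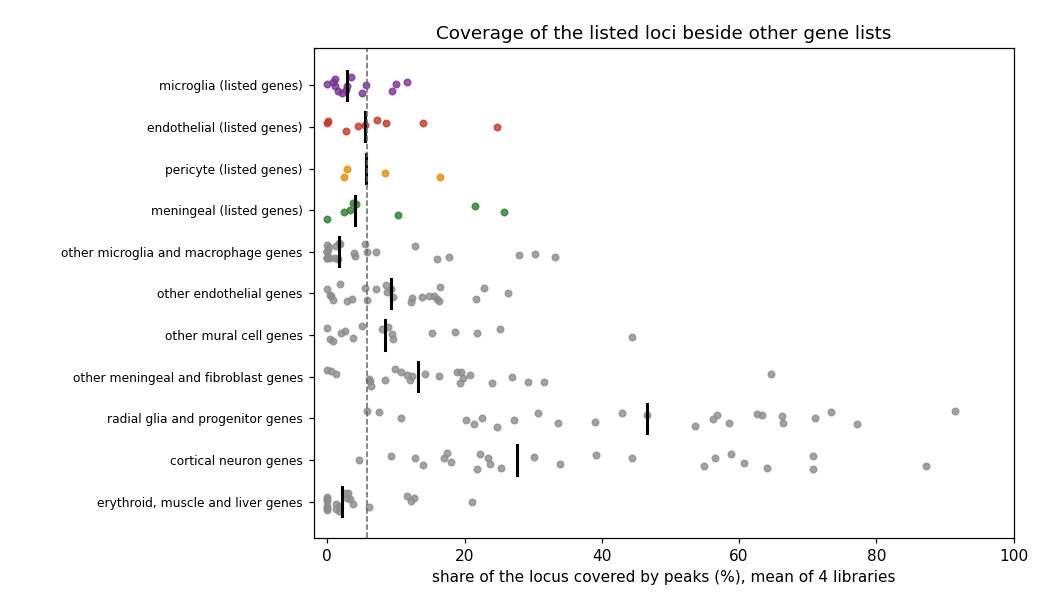
Each point is 1 gene, placed by the share (%) of its locus under peaks as the mean of 4 libraries, with 1 row per gene list, and black ticks mark the list medians. The 4 listed classes have medians from 2.85% (microglia) to 5.65% (pericytes), all left of the dashed line of all loci (5.79%). Radial glia (46.6%) and cortical neuron genes (27.7%) lie far to the right.

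In these further lists limma again called no locus at the adjusted threshold. At an unadjusted p under 0.05, 5.56% of all loci tested were higher in cKO and 4.43% lower. At that level 0 of 12 other microglia genes tested were higher and 1 lower (Runx1, −0.25 ± 0.096, limma adjusted p = 0.475). Of 20 endothelial genes 3 were higher and 2 lower. The endothelial genes were Vwf, the platelet adhesion factor (0.63 ± 0.18, adjusted p = 0.453), Ptprb (0.47 ± 0.18) and Ets1 (0.40 ± 0.14) on the higher side, and Mfsd2a (−0.48 ± 0.15) and Plvap, a protein of fenestrated vessels (−0.53 ± 0.22), on the lower side. Of 12 mural genes 1 was higher, Vtn (0.65 ± 0.18, limma adjusted p = 0.435), which had 3.72 and 3.59 kb covered in the WT libraries and 7.41 and 8.68 kb in the cKO libraries. Of 22 meningeal genes Nid1 (1.55 ± 0.53) and Zic4 (0.45 ± 0.18) were higher and Zic2 (−0.43 ± 0.13) lower. The value of Nid1, a basement membrane protein, rested on 0, 0.521, 2.204 and 2.27 kb. Runx1, Ptprb, Ets1 and Zic4 were named after their values were seen. Other genes with the largest differences of their lists did not reach the unadjusted level: Mrc1 (−0.63 ± 0.30) and Fcgr1 (0.35 ± 0.42) among microglia and macrophage genes, Tagln (−0.53 ± 0.42) and Tbx18 (−0.40 ± 0.21) among mural genes, and Cxcl12 (−0.49 ± 0.22) and S100a6 (−0.46 ± 0.28) among meningeal genes.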

How the data were processed

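H3K4me ChIP-seq was done on 2 WT and 2 cKO libraries, and the 4 matching inputs were not analysed here. Per the labels' protocols, native chromatin was cut with micrococcal nuclease. The mm10 build, MACS2 2.1.1, Bowtie2 2.2.8, cutadapt and FastQC are named in the submitters' processing notes. How MACS2 was set, and whether it used the inputs, is not given in the sources used here. Every peak line has coordinates, a score, a fold enrichment (a ratio) and −log10 p and q values, all as the authors deposited them. These were used only to rank or filter peaks within 1 list. The deposited lists hold no counts, so depth is unknown, and a more deeply sequenced library can yield more and wider peaks.

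Bases under peaks were summed per locus and compared in R 4.3.3 by limma 3.58.1 (moderated with a trend, no block, Benjamini-Hochberg adjustment over all loci kept, threshold 0.05). Tables were made with pandas 2.3.3 and numpy 2.4.6 in Python 3.11.15, and the interval code and the fit were tested on simulated data. Gene spans and promoter windows came from RefSeq tables on GRCm38.p6, the assembly mm10 represents, and all 194 list entries had a locus. The 50 bases after each start are left out of the printed sequences. Alternatives changed the peak threshold, covered length, scaling, pseudocount, filter, flank, replicate block and the libraries used. The text names all 35 members and, of the further lists for the same cell types, the 3 genes with the highest coverage and the 3 with the largest difference; the 3 lists of other tissues and neural cells are given by their medians. 1 gene that this rule picks is not reported here. The members and lists were chosen with earlier results of these data known. Same-numbered libraries did not deviate together (correlation −0.096 over loci), and the labels do not say that the numbers mark a shared batch, so the fit had no block.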

Additional observations from a re-analysis of the deposited data

How the results depend on the processing

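No member passed the adjusted threshold under any of the 12 alternatives, the lowest limma adjusted p being 0.161 for Abcc9 without WT replicate 2. The number of loci called over the whole table ranged from 0 to 124 when single libraries were left out, with 124 without WT replicate 1 and no member among them. The number at an unadjusted p under 0.05 (1492) ranged from 626 without cKO replicate 2 to 2236 without WT replicate 1, and was 3202 without centring. The split of that number into higher and lower, 831 and 661, was 3192 and 10 without centring, 530 and 653 with equal covered length, 871 and 987 with a 25 kb flank and 741 and 379 without a flank. With the replicate block it was 781 and 449, with 0 loci called, and among the 25 members the pairing changed no call at either level. The genes of the further lists were not looked up in that fit. Which of the 25 members stood at an unadjusted limma p under 0.05 changed with other settings. With equal covered length they were Sox18, Sox17 and Col1a2, all lower in cKO, and Abcc9 was not among them. With stricter peaks there was no member. Rgs5 joined Abcc9 without the filter, and Rgs5 and Flt1 did so without centring. Rgs5 and Ptprc joined it without a flank, and C1qa and Ptprc with a 25 kb flank. The median covered share of the members (3.82%) was 3.32% with peaks of −log10 q of at least 2, 2.86% with equal covered length, 2.96% without a flank and 4.34% with 25 kb. Members with peaks in all 4 libraries (27) fell to 16 with equal covered length, and loci with a specific region (4) to 2 with a 500 bp minimum.

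Directions and sizes of single members depended on scaling and on single libraries. Without centring the sign turned at 15 of 25: Csf1r 0.30, Aif1 0.069, Tyrobp 0.11, Irf8 0.27, Pecam1 0.23, Kdr 0.36, Erg 0.28, Sox17 0.083, Sox18 0.067, Pdgfrb 0.32, Kcnj8 0.14, Col1a1 0.34, Col1a2 0.23, Foxc1 0.23 and Aldh1a2 0.054. With equal covered length it turned at Irf8 (0.23), Ptprc (0.24), Pecam1 (0.20), Kdr (0.22), Abcc9 (−0.24) and Col1a1 (0.26). With stricter peaks it turned at Tyrobp (0.90), C1qa (−0.20), Erg (0.0033), Col1a2 (0.13) and Foxc1 (0.14). With a 25 kb flank it turned at Aif1 (0.18) and Col1a2 (0.30), and without a flank at Csf1r (0.15), Kdr (0.037), Pdgfrb (0.015) and Col1a2 (0.040). Over fits without single libraries the sign changed at Csf1r (−0.42 to 0.26), C1qa (−0.29 to 0.65), Irf8 (−0.30 to 0.071), Kdr (−0.088 to 0.046), Erg (−0.32 to 0.12), Pdgfrb (−0.21 to 0.088), Col1a1 (−0.17 to 0.093), Col1a2 (−0.38 to 0.079) and Foxc1 (−0.32 to 0.018). Where the sign held, values moved by over 1.5 times at Lum (−1.44 to −0.0069), Dcn (−0.94 to −0.27), Aldh1a2 (−0.61 to −0.048), Tyrobp (−0.41 to −0.13), Sox17 (−0.43 to −0.17), Pecam1 (−0.22 to −0.077), Flt1 (0.12 to 0.36), Foxd1 (0.083 to 0.64), Spi1 (0.22 to 0.96) and Abcc9 (0.66 to 1.41). A lone library left in a group is assumed to vary like the others. The causes were not tested.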
